A study of Arabis alpina with 19 samples.

Results

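The 150 targets described here of Arabis alpina lateral stems were high in the perennial zone at 4, 5 and 7 weeks and low in all stem samples taken at 30 weeks. A target is 1 transcript sequence to which reads were assigned, and the deposited TPM table (a level per length, set to the same total in each library) holds 30158 of them. For each target the mean TPM of each of the 6 groups was placed on the log2(mean TPM + 1) scale and sorted, and the largest step between neighbouring groups was found. A target was taken where that gap was at least 1, where exactly the 3 young groups lay above it, and where each of these had a mean of at least 5 TPM. Of 5265 targets with a gap of at least 1, 207 split in this way, 34 of these had a young mean under 5 TPM, and 173 met all conditions. The 150 with the largest gap were kept and 23 were not. The members were thus chosen by their group means of TPM, and the gap between young and 30-week groups is given as a description with no test.

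Libraries came from lateral stems that grow from the first and the second node of the main axis. Every group carried the pep1-1 (perpetual flowering 1-1) mutation, so no wild type was among them, and all plants grew under long days. Of the perennial zone (PZ), the whole first internode was cut. The groups I_PZ, II_PZ, III_PZ and IV_PZ stand for its ages of 4, 5, 7 and 30 weeks. At 30 weeks the annual zone (AZ) was also taken, once as a whole short internode (IV_AZ_si) and once as a whole internode close to the inflorescence (IV_AZ_if). The 19 libraries were 3 per group and 4 for IV_AZ_si, and each replicate held 12 plants. No annual zone was sampled at the young ages, so ages can be compared within the perennial zone only, and zones at 30 weeks only.

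Arabis alpina is a perennial relative of Arabidopsis. Its PEP1 gene, the counterpart of Arabidopsis FLC, holds back flowering until cold has acted, and pep1 mutants flower without cold. On a lateral stem the lower, perennial zone thickens by secondary growth of the cambium and stores starch and lipids, whereas the upper, annual zone bears flowers and fruits and later dies. Neither gene names nor Arabidopsis counterparts nor functions come with the identifiers in the files. The members are therefore described by identifier, length and level, and tissue markers could not be looked up.

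Library totals ran from 21032841 to 27999048 estimated counts. A member had a median of 6465 counts over the 9 young libraries and of 1338 over the 10 libraries of 30 weeks. At least 1000 young counts stood behind 141 members, and fewer than 100 behind 3 members. I_PZ replicate 3 stands apart and was left out of the I_PZ mean when members were chosen. It had 187 targets at 1 TPM or more that were at 0 in both other I_PZ libraries, and 121 of these had a III_PZ mean of at least 5 TPM. The same counts were 100 and 27 for I_PZ replicate 1 and 76 and 19 for replicate 2.

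The members together made up a similar part of the transcript pool at the 3 young ages and a smaller part at 30 weeks. Their summed level was 5469 ± 67.3 TPM in I_PZ, 4808 ± 314 in II_PZ and 4617 ± 139 in III_PZ (mean ± SD, n = 3 each). At 30 weeks it was 634 ± 63.2 TPM in IV_PZ (n = 3), 1109 ± 102 in IV_AZ_si (n = 4) and 1062 ± 94.5 in IV_AZ_if (n = 3). As a share of all transcripts, these sums ran from 0.547% in I_PZ to 0.0634% in IV_PZ. The median member mean was 15.6 TPM in I_PZ, 14.98 in II_PZ and 13.6 in III_PZ, against 1.40 in IV_PZ, 3.43 in IV_AZ_si and 2.99 in IV_AZ_if. These are whole internodes, so fewer cells of a type and less RNA per cell cannot be told apart in any of the values.

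**Figure D1:**
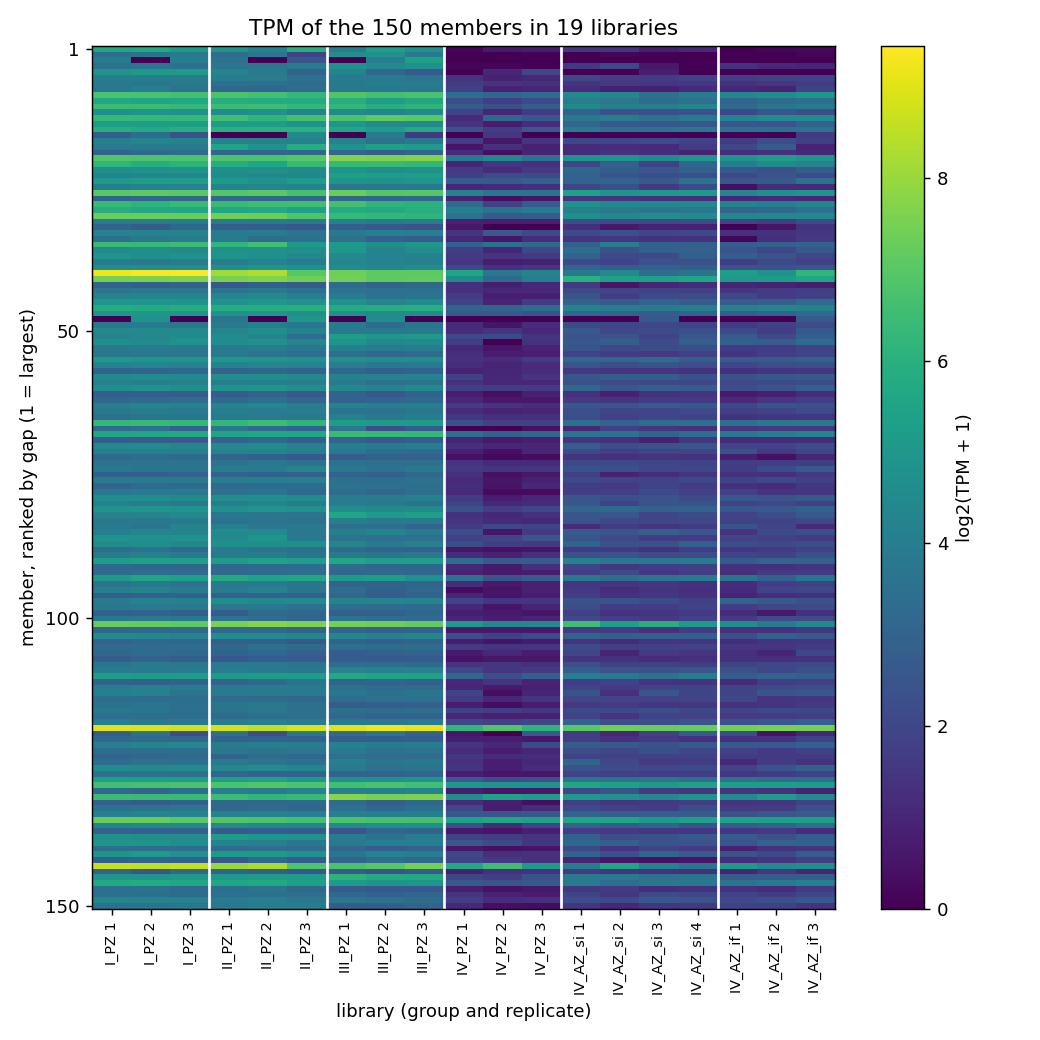
Level of each of the 150 members (lines, sorted by gap) in each of the 19 libraries (columns, grouped), as log2(TPM + 1) by colour. Bright colours are high levels: the 9 young libraries are brighter than the 10 libraries of 30 weeks almost throughout, and IV_PZ is the darkest group.

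The members were low at 30 weeks but seldom absent. In IV_PZ the median member kept 10.3% of its III_PZ mean, with a range of 0% to 43.5%. The median share kept was 27.2% in IV_AZ_si and 23.1% in IV_AZ_if. A read was assigned to 139 members in all 10 libraries of 30 weeks, and 55 members still had a mean of at least 5 TPM in 1 or more of the 30-week groups. Only 4 members were under 1 TPM in each 30-week group: Aa_G199530.h1, Aa_G137740.h1, Aa_G281510.h1 and Aa_G602850.h1. For 146 members all 9 young libraries lay above all 10 libraries of 30 weeks, a contrast that the choice of members used (2.61% of all targets in the table, and 4.24% of those with at least 5 TPM in each young group). The 4 members whose libraries overlapped were short: Aa_G137740.h1, Aa_G281510.h1, Aa_G21090.h1 and Aa_G312820.h1, of 123, 183, 114 and 249 bases.

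The gap ran from 1.15 to 3.55 with a median of 1.48, which is a step of 2.22-fold to 11.7-fold in mean TPM + 1. It was at least 2 in 5 members and at least 3 in 2 of them. Aa_G67080.h1 (1614 bases) had the largest gap. Its level was 47.2, 48.6 and 34.5 TPM in I_PZ, 29.0, 17.6 and 59.4 in II_PZ, and 14.6, 37.0 and 26.6 in III_PZ. At 30 weeks it was 0.113, 0.603 and 0.645 TPM in IV_PZ, 1.80, 1.66, 0.734 and 1.06 in IV_AZ_si, and 0, 0.108 and 0.148 in IV_AZ_if. The lowest young library, at 14.6 TPM, lay above the highest 30-week library, at 1.80 TPM, while the 3 young groups overlapped among themselves. This target shares reads with a similar one (its estimated count was not whole in some library), so the division of reads between them is uncertain.

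Aa_G199530.h1 (1188 bases, gap 3.15) was the member nearest to absence at 30 weeks among those with many young reads. It stood at 10.01, 11.9 and 13.9 TPM in I_PZ, at 9.48, 12.6 and 2.83 in II_PZ, and at 24.6, 26.7 and 14.1 in III_PZ. None of the 10 libraries of 30 weeks exceeded 0.106 TPM, and 5 of them held no read. The 3 groups of 30 weeks held 3, 7 and 5 counts in all, in the order IV_PZ, IV_AZ_si and IV_AZ_if. Aa_G137740.h1 (123 bases, gap 2.60) had no count in any 30-week library, but its young groups held only 6, 3 and 12 counts. It was at 14.2, 0 and 14.6 TPM in I_PZ, 10.5, 0 and 4.76 in II_PZ, and 0, 15.5 and 40.6 in III_PZ. Each young group thus had 1 library at 0, and the gap of this member rests on few reads.

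Aa_G24610.h1 (1320 bases, gap 2.34) was close to constant within each young group. It was at 10.5, 11.9 and 10.6 TPM in I_PZ, 11.9, 12.2 and 14.9 in II_PZ, and 27.8, 22.1 and 25.8 in III_PZ. In IV_PZ it was at 0.0812, 0.120 and 0.0595 TPM, in IV_AZ_si at 1.91, 3.17, 0.565 and 0, and in IV_AZ_if at 1.64, 1.07 and 0.982. The III_PZ libraries lay above all other young ones, and the IV_AZ_si libraries spread from no read to the highest 30-week level. The step from II_PZ to III_PZ missed the threshold (log2 fold change 0.70 ± 0.52 SE, adjusted p = 0.265, edgeR's quasi-likelihood test). Aa_G44120.h1 (303 bases, gap 2.28) had its highest level at 4 weeks, with 28.6, 33.6 and 32.3 TPM in I_PZ, 17.5, 13.8 and 6.90 in II_PZ, and 17.9, 8.00 and 5.41 in III_PZ. The I_PZ libraries stood clear of the later ones, but the step to II_PZ missed the threshold in edgeR's quasi-likelihood test (log2 fold change -1.23 ± 0.64 SE, adjusted p = 0.225). Aa_G337170.h1 (1125 bases, gap 2.00) was level across the young groups, at 14.6 ± 0.184 TPM in I_PZ, 13.5 ± 2.21 in II_PZ and 13.3 ± 1.096 in III_PZ (mean ± SD, n = 3). It was at 1.22 ± 0.456 TPM in IV_PZ (n = 3), 2.59 ± 0.466 in IV_AZ_si (n = 4) and 2.50 ± 0.226 in IV_AZ_if (n = 3).

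**Figure D2:**
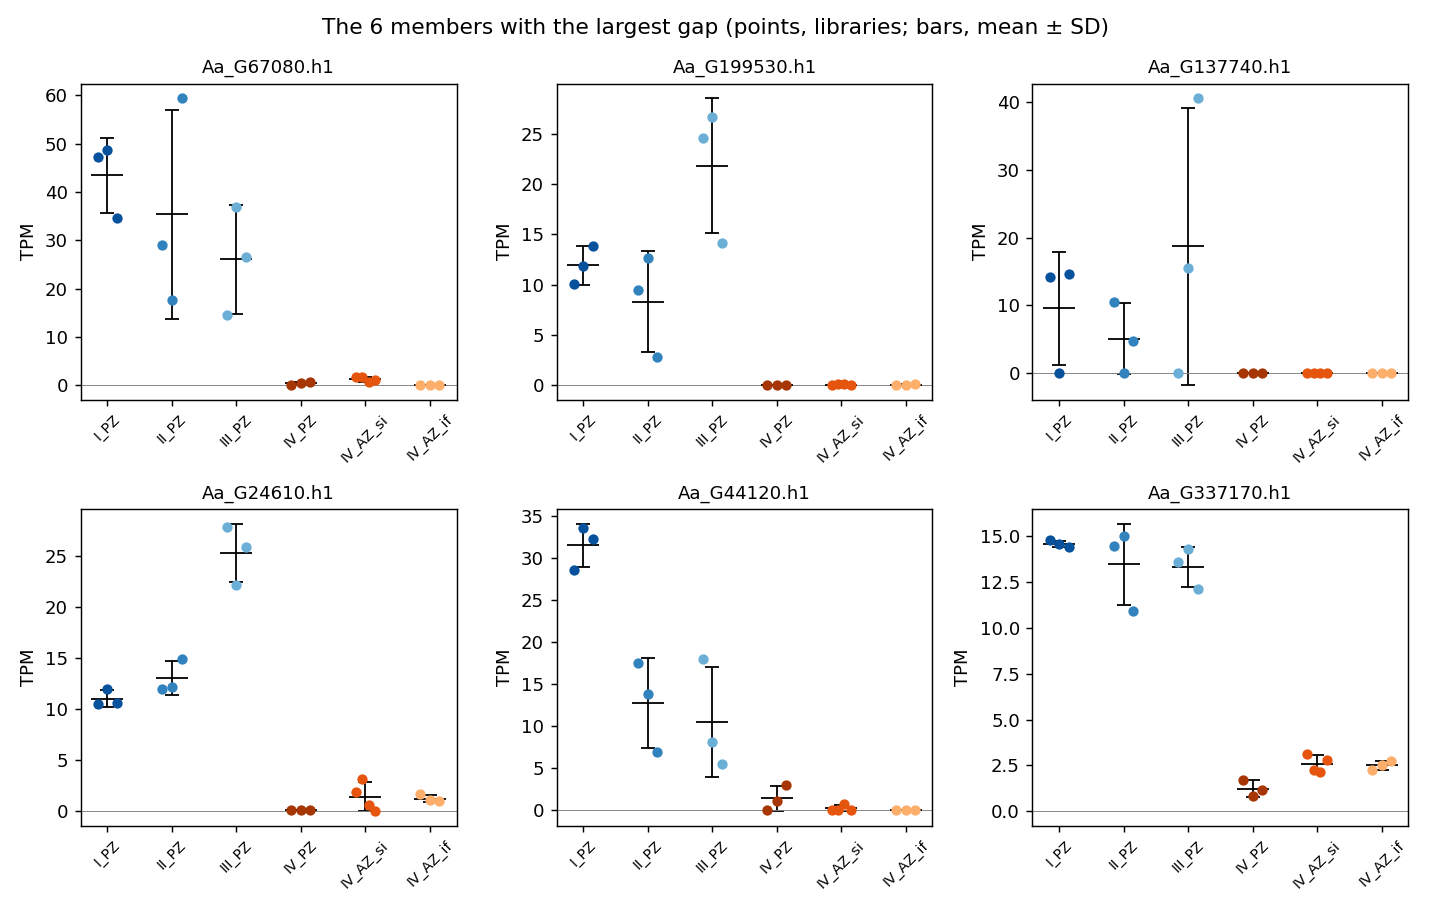
TPM in every library (points) of the 6 members with the largest gap, by group, with bars for the mean and SD. In all panels but that of Aa_G137740.h1 the young libraries lie above the 30-week ones, and the young groups differ in spread and order between members.

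The 6 members with the highest young level carried a large part of the summed level. They held 35.8% of it in I_PZ, 28.8% in II_PZ and 29.2% in III_PZ, and between 28.8% and 35.8% in the 30-week groups. Aa_G332690.h1 (414 bases, gap 1.25) was the highest. It stood at 504, 495 and 433 TPM in I_PZ, 449, 366 and 477 in II_PZ, and 505, 599 and 565 in III_PZ. At 30 weeks its level was 73.8, 118 and 69.8 TPM in IV_PZ, 129, 168, 157 and 150.5 in IV_AZ_si, and 175, 188 and 178 in IV_AZ_if. The 3 groups of 30 weeks did not overlap, with IV_PZ lowest and IV_AZ_if highest.

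Aa_G644340.h1 (768 bases, gap 1.64) was graded by age in its means within the young groups. It was at 592, 667 and 695 TPM in I_PZ, 277, 315 and 126 in II_PZ, and 162, 135 and 138 in III_PZ. At 30 weeks it was at 47.1, 11.9 and 17.6 TPM in IV_PZ, 13.9, 20.7, 9.44 and 11.4 in IV_AZ_si, and 37.6, 26.1 and 74.0 in IV_AZ_if. The I_PZ libraries stood alone at the top, II_PZ replicate 3 lay below all III_PZ libraries, and IV_AZ_if lay above IV_AZ_si without overlap. Its step from II_PZ to III_PZ missed the threshold (log2 fold change -0.97 ± 0.43 SE, adjusted p = 0.0660, edgeR's quasi-likelihood test). Aa_G99690.h1 (297 bases, gap 1.19) had the same order of young means, with 412, 371 and 387 TPM in I_PZ, 256, 304 and 113 in II_PZ, and 106, 125 and 178 in III_PZ. Its 30-week levels were 51.3, 92.5 and 34.3 TPM in IV_PZ, 14.8, 46.1, 17.6 and 11.4 in IV_AZ_si, and 32.3, 21.1 and 24.1 in IV_AZ_if. IV_PZ replicate 2, at 92.5 TPM, came near the lowest young library, at 106 TPM. The step of Aa_G99690.h1 from I_PZ to II_PZ missed the threshold (log2 fold change -0.73 ± 0.39 SE, adjusted p = 0.236, edgeR's quasi-likelihood test).

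The other members of high level were steadier. Aa_G96840.h1 (483 bases, gap 1.61) was at 186 ± 8.28, 180.2 ± 16.6 and 148.7 ± 20.3 TPM in I_PZ, II_PZ and III_PZ, against 15.3 ± 6.43 in IV_PZ, 48.0 ± 10.7 in IV_AZ_si and 38.9 ± 7.40 in IV_AZ_if (mean ± SD, n = 3, or 4 for IV_AZ_si). Aa_G414370.h1 (213 bases, gap 1.38) had its highest mean at 5 weeks. Its young groups were at 144 ± 7.74, 195 ± 11.9 and 162 ± 16.1 TPM. Neither its step from 4 to 5 weeks (adjusted p = 0.245) nor that from 5 to 7 weeks (0.125) was called in edgeR's quasi-likelihood test. Its IV_AZ_si libraries ranged from 34.7 to 91.6 TPM. Aa_G320680.h1 (1368 bases, shared reads, gap 1.79) was highest at 7 weeks, with 115, 110.4 and 108 TPM in I_PZ, 114, 108 and 126 in II_PZ, and 199, 191 and 207 in III_PZ. Its III_PZ libraries lay above the other 6 young libraries without overlap. These 6 members thus shared the drop to 30 weeks, which chose them, but not 1 order of the young ages. Without them the other 144 members summed to 3509 ± 55.7 TPM in I_PZ, 3423 ± 150 in II_PZ and 3270 ± 161 in III_PZ (mean ± SD, n = 3), so most of the difference between 4 weeks and the later young ages in the summed level lay in these 6.

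**Figure D3:**
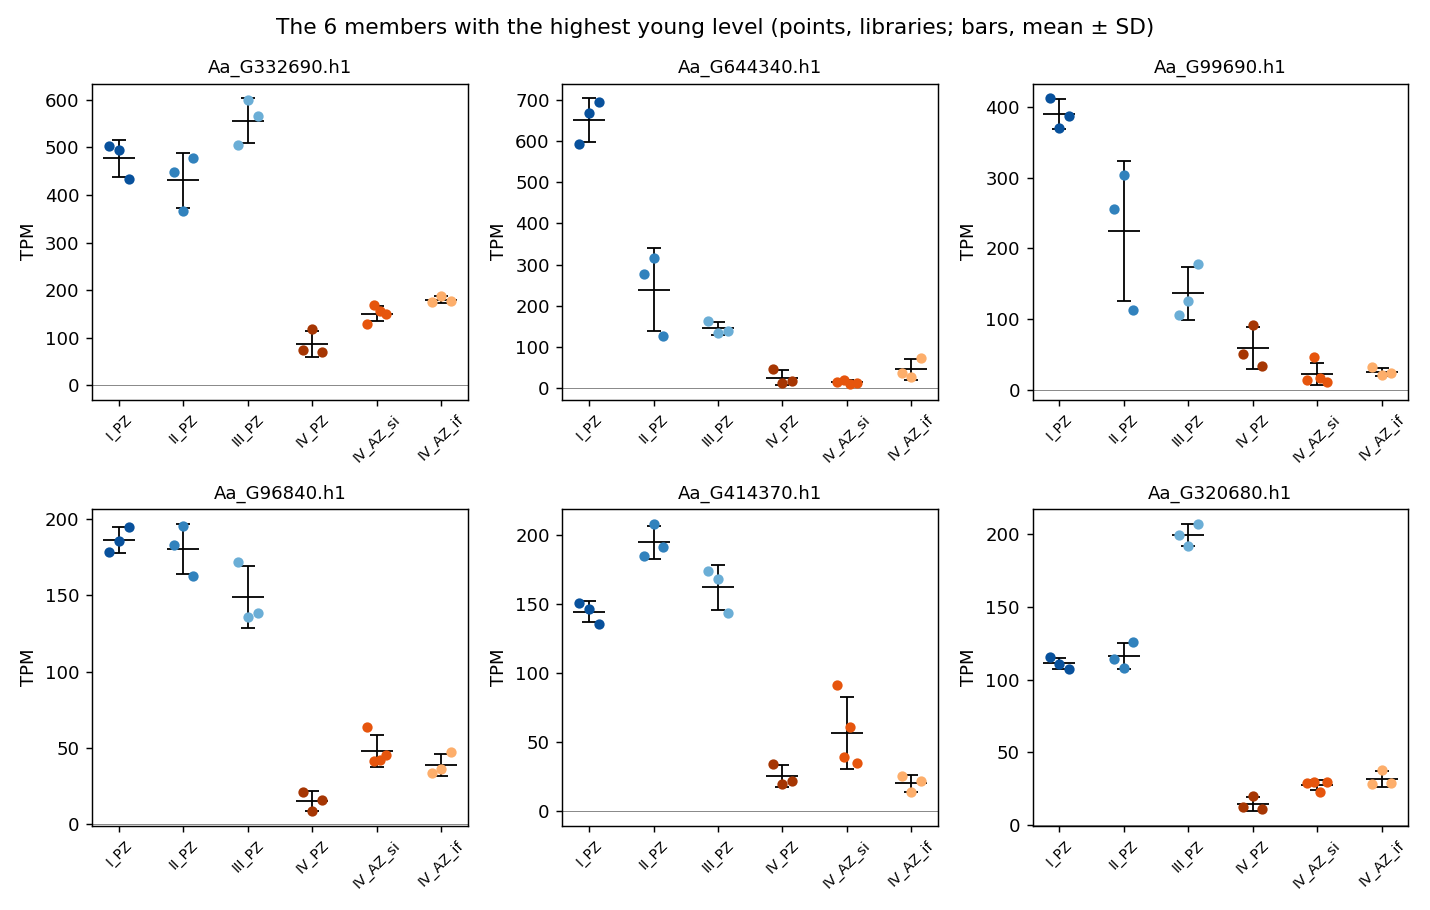
TPM in every library (points) of the 6 members with the highest mean over the young groups, by group, with bars for the mean and SD. The means of Aa_G644340.h1 and Aa_G99690.h1 step down with each young age, Aa_G320680.h1 is highest in III_PZ, and all 6 are low at 30 weeks.

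At the lower end the choice cut through a continuous range. The last members kept were Aa_G148920.h1 at a gap of 1.16 and Aa_G134950.h1 and Aa_G512410.h1 at 1.15. The next below, Aa_G129480.h1, Aa_G432640.h1 and Aa_G48740.h1, had a gap of 1.14. Just inside, Aa_G148920.h1 was at 9.68 ± 0.604 TPM in I_PZ, 10.3 ± 0.274 in II_PZ and 7.55 ± 0.760 in III_PZ, with a highest 30-week library of 3.61 TPM. Just outside, Aa_G48740.h1 was at 23.2 ± 0.594, 23.3 ± 0.525 and 20.3 ± 0.506 TPM in the same groups, with a highest 30-week library of 9.46 TPM (mean ± SD, n = 3).

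I_PZ replicate 3 was the 1 library that the choice did not use, and its values are given as a description. In it, 148 of the 150 members (98.7%) lay above all 10 libraries of 30 weeks, against 17.9% of all targets and 24.1% of targets with at least 5 TPM in each young group. Neither side of this contrast is independent of the choice: the 10 libraries of 30 weeks entered it, and replicate 3 holds transcripts of III_PZ, a group in which members had to be high. The count therefore supports nothing about the members. The level in replicate 3 was 0.985 times the mean of the other I_PZ libraries for the median member, with a range of 0 to 2.05, and 147 members lay within 2-fold. The exceptions to the first count were Aa_G21090.h1, at 0, 27.7 and 0 TPM in I_PZ replicates 1, 2 and 3, and Aa_G312820.h1, at 5.85, 10.5 and 3.51 TPM against a highest 30-week library of 5.76 TPM.

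Most members had like levels at 4 and 7 weeks. Of the 13 members with a III_PZ mean at least 1.5 times the I_PZ mean of replicates 1 and 2, 9 were higher in replicate 3 than in that mean, with a median ratio of 1.08. Of the 25 members with an I_PZ mean at least 1.5 times that of III_PZ, 6 were higher, with a median ratio of 0.958. The 112 members between had a median ratio of 0.992. The part of III_PZ transcripts in these ratios was not tested.

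**Figure D4:**
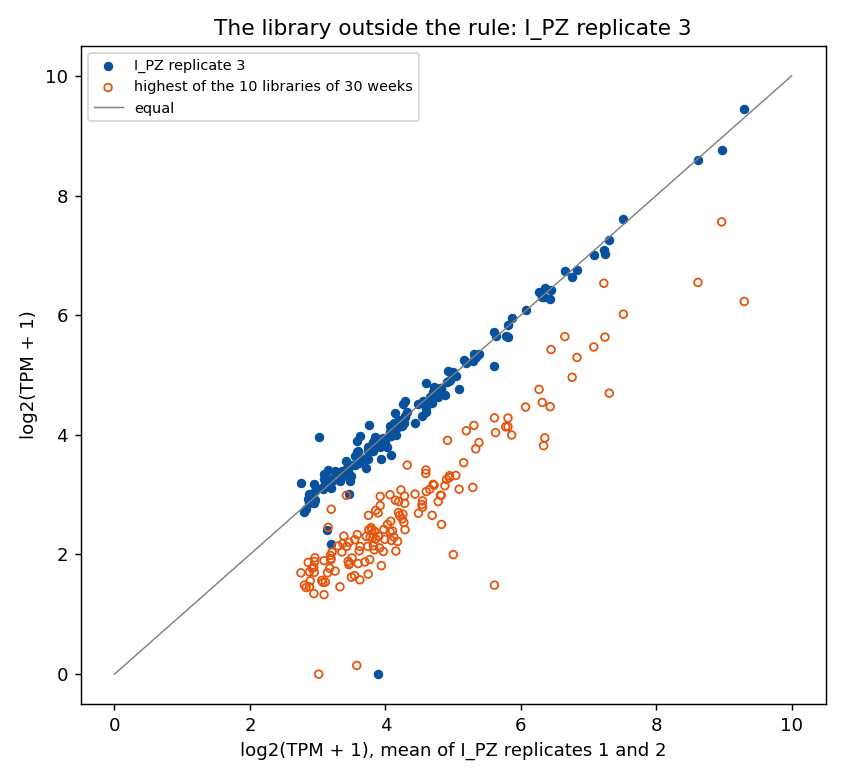
For each member, the level in I_PZ replicate 3, which the choice did not use (filled points), and in its highest 30-week library (open points), both against the mean of I_PZ replicates 1 and 2, all as log2(TPM + 1). Of the filled points, 147 lie within 2-fold of the line of equal level, and Aa_G21090.h1 (at 0), Aa_G312820.h1 (0.428 times) and Aa_G137740.h1 (2.05 times) do not.

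Within the young ages the means of a member lay close together, with I_PZ taken from replicates 1 and 2. The highest and the lowest young mean lay within 2-fold in 130 members (86.7%), against 72.6% of the 13987 targets with at least 5 TPM in each young group. The choice favours this, because no step among the young groups may exceed the gap. The median fold between highest and lowest young mean was 1.34 for the members and 1.57 for those targets, and the highest was 4.34. III_PZ had the lowest young mean in 91 members (60.7%, against 36.4% of those targets), and 59 members (39.3%, against 26.1%) stepped down from I_PZ through II_PZ to III_PZ in their means. The opposite order, with means higher at each age, was seen in 17 members (11.3%, against 29.7%).

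From 4 to 5 weeks few members were called in the fit of all 19 libraries. Of the 147 that passed the filter on low counts, 2 rose and 1 fell in edgeR's quasi-likelihood test at an adjusted p under 0.05, which is 2.04% against 16.1% of all 23528 targets tested (9.33% higher and 6.78% lower). Of the 13879 tested targets with at least 5 TPM in each young group, 20.7% were called (12.3% higher and 8.37% lower). The choice favours a low share among members, because no step among the young groups may exceed the gap. How far this lowers the share called was not tested. At an unadjusted p under 0.05 there were 13 members. The median log2 fold change of the members was 0.05, against 0.00 over all targets. The counts moved with the tool and with the libraries in the fit. DESeq2 called 4 higher and 5 lower, which is 6.12% of the members against 19.1% of all targets. A fit of these groups alone called 10 higher and 7 lower, 11.6% against 18.7%. With replicate numbers as a block in that fit, 13 were higher and 10 lower, 15.6% against 21.9%. With size factors of the TPM scale the members split into 2 higher and 5 lower (4.76% against 16.0%). Their median turned to -0.03 (log2), against -0.08 over all targets. Without I_PZ replicate 3 the test called 2 higher and 2 lower (2.72% against 14.3%).

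Aa_G76360.h1 (1074 bases, shared reads) was at 13.3, 13.7 and 14.4 TPM in I_PZ and at 45.2, 27.0 and 56.4 in II_PZ. All II_PZ libraries lay above all I_PZ libraries, and the target rose by 1.73 ± 0.40 (log2, SE, adjusted p = 0.00702, edgeR). Its III_PZ libraries, at 26.4, 39.0 and 33.7 TPM, overlapped those of II_PZ. Aa_G57670.h1 (1284 bases) was at 8.40, 7.42 and 9.63 TPM in I_PZ and at 15.3, 13.3 and 17.3 in II_PZ, again without overlap. It rose by 0.94 ± 0.25 (log2, SE, adjusted p = 0.0170, edgeR), but the adjusted p was 0.0541 without I_PZ replicate 1, 0.0778 without I_PZ replicate 2 and 0.0862 without II_PZ replicate 3. Aa_G644340.h1, whose values are given above, fell by 1.37 ± 0.44 (log2, SE, adjusted p = 0.0397, edgeR). That call was lost without I_PZ replicate 1 (0.0715), 2 (0.0933) or 3 (0.0667) and without II_PZ replicate 1 (0.0649) or 3 (0.181).

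From 5 to 7 weeks more members changed, and mostly downwards. In edgeR's test 8 members rose and 63 fell, which is 48.3% of the 147 against 57.6% of all targets tested (26.6% higher and 31.1% lower) and 61.2% of those with at least 5 TPM in each young group (24.4% higher and 36.8% lower). The changes were small: 3 of those that rose and 12 of those that fell did so by at least 2-fold. The choice limits such steps among the young groups, and how far this lowers the share called was not tested. The median log2 fold change was -0.42 for the members and -0.03 for all targets. With size factors of the TPM scale 11 rose and 30 fell, which is 27.9% against 59.9% of all targets. The medians were then -0.17 for the members and 0.22 for all targets. The members thus lay 0.39 below the median of all targets on both scales. The share of member calls that were higher was 11.3% with TMM scaling and 26.8% on the TPM scale. Over all targets, 6255 were higher and 7306 lower with TMM scaling, and 8914 and 5182 on the TPM scale. A fit of these groups alone called 12 higher and 75 lower, which is 59.2% of the members against 58.8% of all targets. Without III_PZ replicate 2, 7 members rose and 37 fell, which is 29.9% against 52.5% of all targets.

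Aa_G637270.h1 (1770 bases) had the largest rise among members called without overlap. It was at 13.2, 12.0 and 12.2 TPM in II_PZ and at 46.1, 33.9 and 40.0 in III_PZ, after 17.6, 18.6 and 21.9 in I_PZ. All III_PZ libraries lay above the other young ones, and II_PZ was the lowest of the 3 groups without overlap. The log2 fold change from 5 to 7 weeks was 1.43 ± 0.20 (SE, adjusted p = 1.05e-05, edgeR). Aa_G447440.h1 (315 bases) was at 87.6, 72.5 and 82.2 TPM in II_PZ and at 208, 180.1 and 191 in III_PZ. The groups did not overlap, and it rose by 1.00 ± 0.19 (log2, SE, adjusted p = 0.000262, edgeR).

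Aa_G67370.h1 (414 bases) had the largest decrease among members called without overlap, from 36.5, 30.5 and 26.1 TPM in II_PZ to 14.6, 10.7 and 15.04 in III_PZ. The groups did not overlap, and the difference was -1.45 ± 0.22 (log2, SE, adjusted p = 1.89e-05, edgeR). Aa_G512410.h1 (996 bases), 1 of the members with the smallest gap, was at 12.2, 14.9 and 15.1 TPM in II_PZ and at 5.68, 6.03 and 6.88 in III_PZ. Its III_PZ libraries were the lowest young ones without overlap, and the difference was -1.44 ± 0.29 (log2, SE, adjusted p = 0.000426, edgeR).

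At 30 weeks the members were lower in the perennial zone than in either part of the annual zone. IV_PZ had the lowest of the 30-week means in 129 members (86.0%), against 42.0% of the targets with at least 5 TPM in each young group. IV_AZ_si had the highest in 99 members (66.0%, against 25.5%). The order IV_AZ_si, IV_AZ_if, IV_PZ from high to low held in 88 members (58.7%, against 13.7%). Both comparisons of IV_PZ use the same 3 libraries of that group and are given side by side.

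Set against IV_AZ_si, the short internode, 123 members were lower in IV_PZ and 2 were higher, which is 85.0% called against 57.1% of all targets tested (31.4% lower and 25.7% higher, edgeR's quasi-likelihood test). Among targets with at least 5 TPM in each young group it was 61.7% (33.6% lower and 28.1% higher). Of those lower, 98 were lower by at least 2-fold. The median log2 fold change was -1.31 for the members and -0.04 for all targets. Without IV_PZ replicate 1, 4 members were higher, with 85.7% of the members called against 52.2% of all targets. Set against IV_AZ_if, the internode near the inflorescence, 112 members were lower in IV_PZ and 4 were higher, which is 78.9% against 70.2% of all targets (36.5% lower and 33.7% higher) and 74.2% of those at 5 TPM or more in each young group (39.1% lower and 35.1% higher). Of those lower, 86 were lower by at least 2-fold, and the medians were -1.23 and 0.00 (log2). Without IV_PZ replicate 2, 2 members were higher, with 74.1% of the members called against 66.7% of all targets.

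Aa_G63770.h1 (516 bases) had the largest negative difference against both annual zones among members called without overlap. It was at 0, 0 and 0.351 TPM in IV_PZ, at 1.13, 2.55, 1.84 and 1.41 in IV_AZ_si and at 1.80, 2.06 and 1.98 in IV_AZ_if. No IV_PZ library reached either annual zone, and all 5 counts of IV_PZ came from replicate 3. The difference was -3.73 ± 0.73 (log2, SE, adjusted p = 0.000282, edgeR) against IV_AZ_si and -4.04 ± 0.74 (adjusted p = 9.96e-05) against IV_AZ_if, and without that library the fitted values became -7.41 and -7.75. Aa_G20790.h1 (1437 bases) was at 0.368, 0.145 and 0.234 TPM in IV_PZ and at 1.75, 1.48, 1.74 and 1.57 in IV_AZ_si. These groups did not overlap, a difference of -2.67 ± 0.31 (log2, SE, adjusted p = 9.13e-07, edgeR). Aa_G24610.h1, whose values are given above, was lower in IV_PZ than in IV_AZ_if with a difference of -3.89 ± 1.00 (log2, SE, adjusted p = 0.00212, edgeR).

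Few members ran the other way. Aa_G222910.h1 (1965 bases) was at 2.85, 1.94 and 1.52 TPM in IV_PZ and at 0.979, 0.503, 0.359 and 0.505 in IV_AZ_si. Every IV_PZ library was above every IV_AZ_si library, a difference of 1.89 ± 0.28 (log2, SE, adjusted p = 2.03e-05, edgeR). Aa_G99690.h1 was higher in IV_PZ than in IV_AZ_if by 1.08 ± 0.44 (log2, SE, adjusted p = 0.0383, edgeR), without overlap. That call was lost without IV_PZ replicate 1 (adjusted p = 0.0522) or 2 (0.253) and without IV_AZ_if replicate 2 (0.115) or 3 (0.0917).

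The remaining members higher in IV_PZ were too few to leave unnamed and were picked after their values were seen. Aa_G99690.h1 was also higher than in IV_AZ_si, by 1.43 ± 0.41 (log2, SE, adjusted p = 0.00692, edgeR), although IV_AZ_si replicate 2 lay within the range of IV_PZ. Against IV_AZ_if, Aa_G442620.h1 stood at 15.9, 11.4 and 13.5 TPM and at 7.48, 8.55 and 10.4 TPM, a difference of 0.52 ± 0.15 (log2, SE, adjusted p = 0.00531, edgeR). Aa_G208940.h1 was at 1.67, 5.29 and 3.22 TPM in IV_PZ and at 1.62, 1.59 and 1.92 in IV_AZ_if, with overlap and a difference of 0.87 ± 0.27 (log2, SE, adjusted p = 0.00963, edgeR). Aa_G44120.h1 had 0, 1.08 and 2.99 TPM and 19 counts in IV_PZ and no count in IV_AZ_if (adjusted p = 0.0153, edgeR).

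**Figure D5:**
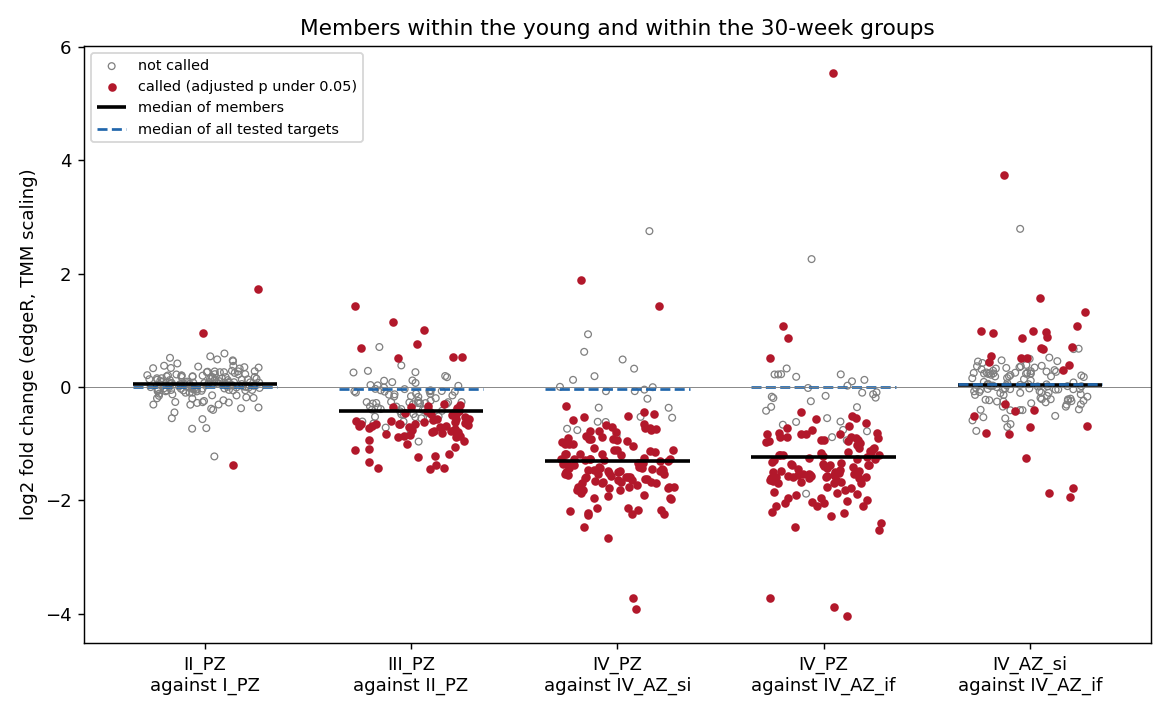
Log2 fold changes (TMM-scaled counts) of the 147 tested members in the 5 comparisons within the young and within the 30-week groups, 1 point per member, with the members called marked. Members lie near 0 from 4 to 5 weeks, slightly below 0 from 5 to 7 weeks (median -0.42), mostly below 0 in both comparisons of IV_PZ (medians -1.31 and -1.23), and on both sides of 0 between the annual zones.

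The 2 parts of the annual zone differed from each other in fewer members than IV_PZ did from either part. IV_AZ_si was higher in 19 and lower in 12 members than IV_AZ_if, which is 21.1% called against 48.6% of all targets tested (24.8% higher and 23.9% lower, edgeR) and 54.5% of those at 5 TPM or more in each young group (26.3% higher and 28.2% lower). The choice favours a low share among members, because no step between neighbouring groups may exceed the gap. It also took members that were low here, with a median member mean of 3.43 TPM in IV_AZ_si and 2.99 in IV_AZ_if. How far these limits lower the share called was not tested. The median log2 fold change was 0.03 for the members and 0.05 for all targets. With TPM-scale size factors, where the median of all targets was 0.19, 34 were higher and 7 lower (27.9% called against 51.8%). Of the member calls 82.9% were then higher in place of 61.3%. All targets moved the same way, from 5830 higher and 5612 lower to 7813 and 4369. Single libraries moved these counts: 12 were higher without IV_AZ_si replicate 1, 19 were lower and 13 higher without IV_AZ_if replicate 1 (median -0.05), and 6 were lower without IV_AZ_if replicate 2. In that order, 15.6%, 21.8% and 13.6% of the members were called, against 45.8%, 43.6% and 42.7% of all targets.

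Aa_G67080.h1, the member of largest gap, was also the most uneven between these parts among called members, with no overlap and a difference of 3.74 ± 0.85 (log2, SE, adjusted p = 0.00154, edgeR) on 291 counts in IV_AZ_si and 15 in IV_AZ_if. Aa_G232510.h1 (1131 bases) was at 2.92, 3.90, 2.04 and 3.49 TPM in IV_AZ_si and at 0.306, 1.33 and 1.15 in IV_AZ_if. All IV_AZ_si libraries were the higher ones, by 1.57 ± 0.29 (log2, SE, adjusted p = 0.000283, edgeR). In the other direction, Aa_G257180.h1 (294 bases) was at 3.18, 6.60, 2.67 and 7.51 TPM in IV_AZ_si and at 14.5, 21.1 and 17.1 in IV_AZ_if. The groups did not overlap, and the difference was -1.94 ± 0.30 (log2, SE, adjusted p = 5.02e-05, edgeR). Its IV_PZ libraries, at 0.958, 1.89 and 1.40 TPM, were lower still. Aa_G644340.h1 was likewise lower in IV_AZ_si, a difference of -1.87 ± 0.42 (log2, SE, adjusted p = 0.00140, edgeR).

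Members moved together between replicates of a group. In IV_PZ, replicate 1 was the highest library in 104 members (69.3%, against 28.9% of targets with at least 5 TPM in each young group) and replicate 2 the lowest in 95 (63.3%, against 25.2%). In IV_AZ_if, replicate 3 was the highest in 98 members (65.3%, against 35.7%), and in IV_AZ_si replicate 1 was the highest in 90 (60.0%, against 32.2%). Among the young groups, III_PZ replicate 1 was the highest in 93 members (62.0%, against 31.5%) and replicate 2 the lowest in 84 (56.0%, against 23.7%). II_PZ replicate 3 was the lowest of its group in 97 members (64.7%, against 48.0%). On the TMM scale the same counts for IV_PZ were 100 and 103 of 147 members (68.0% and 70.1%), against 34.7% and 40.1% of targets with at least 5 TPM in each young group. The members are thus not independent of each other, and counts of members do not act as counts of replicates.

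The spread between replicates was larger at 30 weeks. The median coefficient of variation of TPM was 6.14% in I_PZ, 10.2% in II_PZ and 9.89% in III_PZ, near the 6.40%, 10.2% and 7.65% of targets with at least 5 TPM in each young group. In IV_PZ it was 30.4% over the 101 members with a mean of at least 1 TPM, against 9.32%. In IV_AZ_si it was 17.9% against 9.93%, and in IV_AZ_if 19.2% against 9.67%. Members have lower counts at 30 weeks than those targets, and the part of counting error in this spread was not tested.

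The median member was 1263 bases long, while the median of the whole table was 963 bases and that of targets with at least 5 TPM in each young group was 1017 bases. The members' lengths ran from 114 to 8361 bases, and nearly all lengths in the files are multiples of 3, so these are coding lengths. Reads were shared with another target in 23 members (15.3%), against 18.4% of the table and 2657 of the 13987 targets at 5 TPM or more. No member had counts identical to those of another target.

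Identifiers of the annotation run in steps of 10, and 3 pairs of members had consecutive identifiers. Their positions in the genome are not part of what was used here, so consecutive numbers are only a description. Aa_G41840.h1 and Aa_G41850.h1 (2373 and 2382 bases, both with shared reads) had like levels, at 16.3 ± 0.209 and 15.6 ± 1.39 TPM in I_PZ, 12.1 ± 1.63 and 9.46 ± 0.891 in III_PZ, and 1.27 ± 0.308 and 0.809 ± 0.208 in IV_PZ (mean ± SD, n = 3). Aa_G212940.h1 and Aa_G212950.h1 (1296 and 1143 bases, both with shared reads) were also alike, at 8.07 ± 1.19 and 8.32 ± 0.463 TPM in I_PZ and 0.793 ± 0.472 and 0.771 ± 0.243 in IV_PZ. Aa_G44120.h1 and Aa_G44130.h1 (303 and 990 bases, no shared reads) differed. Aa_G44130.h1 was at 37.7 ± 0.851 TPM in I_PZ, 33.8 ± 5.41 in II_PZ and 23.9 ± 5.12 in III_PZ, with 1.24 ± 0.499 in IV_PZ, 5.77 ± 1.29 in IV_AZ_si and 5.62 ± 1.27 in IV_AZ_if. It was thus higher in both annual zones than in IV_PZ, whereas Aa_G44120.h1 was highest in IV_PZ among the 30-week means.

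The 3 members that did not pass the filter on low counts were Aa_G137740.h1, Aa_G281510.h1 and Aa_G21090.h1. They are among the shortest members, and their group means rest on at most 12 counts each. Aa_G281510.h1 was at 6.28, 9.41 and 4.30 TPM in I_PZ, at 0, 0 and 21.1 in II_PZ and at 0, 13.7 and 2.00 in III_PZ. Its young libraries overlapped the 30-week ones, of which 2 held a read. Aa_G602850.h1 (573 bases), the remaining member under 1 TPM in each 30-week group, did pass, at 7.16 ± 1.09 TPM in I_PZ, 5.58 ± 0.674 in II_PZ and 5.23 ± 0.979 in III_PZ (mean ± SD, n = 3). Its highest 30-week library was at 1.54 TPM, below the lowest young one at 4.32 TPM.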

How the data were processed

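Stranded mRNA libraries were made from total RNA, per the labels' protocols. Bcl2fastq and kallisto were used, per the submitters' processing notes. The sources used here do not name versions, a transcript reference or a build. Each library file lists 34220 targets with the authors' estimated count and TPM, per the file headers. The deposited TPM table of the series holds 30158 of them with identical TPM values.

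Members were chosen on that table by group means of TPM, with I_PZ from replicates 1 and 2. The members, lists, tests and alternatives were chosen with earlier results of these data known. Estimated counts were rounded and tested with edgeR 4.0.16 in R 4.3.3 (quasi-likelihood, TMM, default filter with minimum count 10 and minimum total 15) in 1 fit of all 19 libraries with only the group as a term. Calls were made at a Benjamini-Hochberg adjusted p under 0.05 over 23528 targets. Labels call the libraries biological replicates; replicate pairs differed by more than sampling noise (chi-square per degree of freedom at least 3.70), and p-values measure the spread between these libraries. Reads counted as shared where an estimated count was over 0.001 from a whole number. Depth of 21032841 to 27999048 counts per library limits members at few counts.

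Named members were the 6 with the largest gap, the 6 with the highest mean over the young groups, the 3 on each side of the lower limit, and in each comparison the 2 highest and the 2 lowest called ones without overlap in CPM. A few others are named where a count was 5 or less. Alternatives were RLE and TPM-scale size factors, DESeq2 1.42.0, limma 3.58.1 with a trend, at pseudocounts of 1 and 0.1 TPM on the log2 scale, no filter, no targets with shared reads, the compared groups alone, a replicate block, a 2-fold minimum, and leaving out single replicates. The edgeR test with TMM and with RLE, DESeq2, and limma at a pseudocount of 1 were tried on simulated data. There DESeq2 made more false calls than edgeR. The other alternatives were not tried on simulated data. Gene lists could not be matched to identifiers and were not tested.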

Additional observations from a re-analysis of the deposited data

Results flagged for a closer look

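Within the 4 libraries of IV_AZ_si, 3 named members had 1 library far from the others, measured as the gap to its neighbour over the range of the group. The ratio passed Dixon's 95% critical value for 4 samples, which chance passes in about 1 in 20 groups, and 29 items were looked at. Aa_G44120.h1 was at 0.731 TPM in replicate 3 and at 0 in the others (ratio 1), which is 3 counts. Aa_G76360.h1 was at 2.19 TPM in replicate 4 against 1.19, 1.28 and 1.24 TPM (ratio 0.908). Aa_G320680.h1 was lowest in replicate 3, at 22.6 TPM against 28.8, 29.8 and 29.8 TPM (ratio 0.858).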

How the results depend on the processing

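No named member's fold change turned its sign under the alternatives run, but the balance of calls did in 2 comparisons. From 4 to 5 weeks the members' median (0.05 log2) became -0.03 with TPM-scale size factors and in all 3 limma settings, and more members were lower than higher there, with RLE, with DESeq2 and without shared reads. Between the annual zones the median (0.03) was below 0 in 6 settings, the lowest being -0.05 without IV_AZ_if replicate 1, where 13 members were higher and 19 lower. The counts of members called from 4 to 5 weeks were the least stable. Those higher (2 as reported) became 1 with a fold of at least 2, 4 with DESeq2, 0 with limma on log2(TPM + 0.1), 1 without shared reads, 10 with these groups alone and 13 with the replicate block, and 1 to 2 with a replicate left out. Those lower (1) became 4 with RLE, 5 with TPM-scale size factors, 5 with DESeq2, 2 with no filter, 6 and 2 with limma on log2(TPM + 1) and log2(TPM + 0.1), 5 with limma and no filter, 4 without shared reads, 7 with these groups alone and 10 with the replicate block, and 0 to 2 with a replicate left out. From 5 to 7 weeks, those higher (8) became 3 with a fold of at least 2 and 14 with limma on log2(TPM + 1), and 6 to 9 with a replicate left out. Those lower (63) became 12 with a fold of at least 2, 30 with TPM-scale size factors, and 34, 24 and 31 with limma on log2(TPM + 1), on log2(TPM + 0.1) and with no filter, and 37 to 59 with a replicate left out. For IV_PZ against IV_AZ_si, those higher (2) ranged from 2 to 4 and those lower (123) from 116 to 123 with a replicate left out. For IV_PZ against IV_AZ_if, those higher (4) became 2 with a fold of at least 2, with limma and no filter, and with these groups alone, and 1 with the replicate block, and ranged from 2 to 4 with a replicate left out; those lower (112) ranged from 107 to 122. Between the annual zones, those higher in IV_AZ_si (19) became 4 with a fold of at least 2, 34 with TPM-scale size factors, 32, 32 and 30 with the 3 limma settings and 11 with the replicate block, and 12 to 21 with a replicate left out. Those lower (12) became 4, 7, and 6 in each limma setting, and 6 to 19 with a replicate left out. The shares called, both directions together and the fold minimum aside, ran as follows. From 4 to 5 weeks they were 0.680% to 15.6% for members and 8.08% to 21.9% for all targets. From 5 to 7 weeks they were 22.7% to 59.2% and 46.9% to 60.4%. Against IV_AZ_si, IV_PZ gave 72.2% to 85.7% and 45.8% to 58.0%, and against IV_AZ_if 65.5% to 85.7% and 57.9% to 70.9%. Between the annual zones they were 13.6% to 27.9% and 38.5% to 52.2%. The causes were not tested.

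Replicate numbers gave little sign of pairing the libraries in most comparisons. Same-numbered libraries of compared groups had correlations of -0.07 to 0.26 of their deviations from the group means, over 0.1 in 2 of 15 pairs, so the block shares only a number. From 4 to 5 weeks every II_PZ library correlated best with the I_PZ library of its own number, which is a hint from the data and not the design. Of named members, Aa_G76360.h1 and Aa_G57670.h1 missed the threshold from 4 to 5 weeks with limma on log2(TPM + 0.1), at adjusted p = 0.0530 and 0.0651, and Aa_G99690.h1 missed it for IV_PZ against IV_AZ_if with limma and no filter, at 0.0618. Over other settings of the choice itself, 162 to 187 targets met it and 135 to 150 members stayed. For members at a few counts per group the depth, not the scaling, limits what can be said.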

Other observations

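Among the 4062 targets of the library files that the series table does not hold, 1 met the same conditions. Aa_G310730.h2 (153 bases) had means of 12.6, 12.9 and 19.9 TPM in I_PZ, II_PZ and III_PZ, 5.61 TPM in IV_PZ, 1.01 TPM in IV_AZ_si and 2.43 TPM in IV_AZ_if, with a gap of 1.04, under that of every member kept.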
